A study of Mus musculus with 12 samples.

Results

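The genes described here are 10 parts of the machinery that holds or releases the cell cycle in G1. They are Trp53, its negative regulator Mdm2, the cyclin-dependent kinase (CDK) inhibitors Cdkn1a, Cdkn1b, Cdkn2a, Cdkn2b and Cdkn2c, the retinoblastoma gene Rb1, and the D-type cyclins Ccnd1 and Ccnd2. They were chosen by name, and each had 1 row in every table, which makes 10 of 14851 genes. In the Rb pathway, D-type cyclins activate Cdk4 and Cdk6, these kinases phosphorylate Rb, and Rb then releases E2F factors that switch on genes of DNA replication. The Ink4 proteins, made from Cdkn2a, Cdkn2b and Cdkn2c, block Cdk4 and Cdk6, and the Cip/Kip proteins p21 and p27, made from Cdkn1a and Cdkn1b, bind cyclin-CDK complexes. In the p53 pathway, Mdm2 marks p53 for degradation, p19Arf from the Cdkn2a locus holds Mdm2 back, and p53 switches on Cdkn1a and Mdm2. Mouse cells that escape senescence in culture have often lost the Cdkn2a locus or p53 function.

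The libraries came from 562 cells, a spontaneously immortalized line grown from the vascular tumors of Tsc1 f/f;Scl-Cre mice, in which tamoxifen-induced Cre had removed Tsc1 from endothelial cells. The Tsc1 deletion was therefore shared by all groups, and the control cells, labelled wildtype, were wild type only for the autophagy genes. The 3 control libraries came from 562 cells with an sgRNA against EGFP, and 3 libraries each came from 562 cells with CRISPR-Cas9 knockout of Fip200 (Rb1cc1), Atg5 or Atg7. FIP200 starts the formation of autophagosomes, and Atg5 and Atg7 are needed to attach LC3 to their membrane. The guides were delivered in the lentiCRISPR v2 vector, and the cells were selected with puromycin for a week. All groups descend from 1 line of strain C57BL/6, labelled lymphatic endothelial cells, and the labels do not say which of the Fip200 guides or clones was sequenced. The study describes the RNA samples of each KO as independent replicates and its experiments as repeated on biological replicates. Separate cultures are not named, and the p-values measure the spread between these libraries.

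RNA levels are given as RPKM, that is reads per kilobase of gene, scaled to the total of the library, on between 17266926 and 23629730 reads per library. In all 12 libraries, 7 of 8 endothelial markers lay above 1 RPKM, among them Pecam1 at 265 to 539, and the lymphatic markers Lyve1 and Pdpn lay above 51. Prox1, which defines lymphatic endothelial cells, was at 0.0366 to 5.79 RPKM and Reln, also on the lymphatic list, at 0.00775 to 4.39. Of the 6 lymphatic markers, 5 had values, and 3 lay above 1 RPKM in every library. The lymphatic label is that of the submitters and was not tested. Fibroblast and mural markers summed to 7.90 to 25.2 RPKM in control, 16.2 to 289.5 with Fip200 KO, 111 to 212 with Atg5 KO and 73.5 to 361 with Atg7 KO. Thy1 made up 94.6% to 99.5% of this sum in control replicate 1 and in 8 of the 9 KO libraries, 44.7% in control replicate 2 and 29.9% in control replicate 3. In Fip200 KO replicate 3 it made up 1.30%, and Acta2 at 15.2 RPKM carried the sum. Pdgfra reached 9.02 and Pdgfrb 4.19 RPKM in control, but at most 0.320 and 0.194 in the KO libraries. Col1a2 reached 0.0202 RPKM in control and 1.54 in the KO libraries. Col1a1, Des and Rgs5 stayed at or below 0.476 RPKM in every library, and the part of these markers in the results was not tested. Of the leukocyte markers, Ptprc and Adgre1 were at or below 0.129 RPKM in every library, and Cd68, a lysosomal protein, was at 34.4 to 91.7 RPKM in control, 15.9 to 263 with Fip200 KO, 9.94 to 11.6 with Atg5 KO and 6.95 to 27.1 with Atg7 KO. The epithelial marker Krt18 was at 6.17 to 10.5 RPKM in control and 0.216 to 6.25 in the KO libraries. Fip200 KO replicate 3 stood apart from the other Fip200 KO libraries, with a chi-square per degree of freedom of 238 and 316 over all genes, where the other pairs within a group reached at most 144. The log2 fold changes of the 10 genes in Fip200 KO cells are therefore given with and without it. Of the targeted genes, only Atg7 RNA was lower in its own KO cells by the criteria used here (log2 fold change −1.97, adjusted p = 0.0216). This drop was not particular to these cells, since Atg7 RNA also fell in Atg5 KO cells (log2 fold change −0.95, adjusted p = 0.0083 from limma). It was at 9.94 to 11.9 RPKM there, against 18.4 to 25.0 in control, and at 38.3, 12.4 and 8.23 in Fip200 KO replicates 1 to 3. The RNA of a gene cut by Cas9 does not show whether the protein is lost. The library names carry the prefix FY, JG or Yang. Control replicate 1 and all Fip200 KO libraries are FY, control replicates 2 and 3 and Atg5 KO replicates 1 and 2 are JG, and Atg5 KO replicate 3 and all Atg7 KO libraries are Yang.

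The brakes were transcribed in this line. In control cells Cdkn2a RNA was the highest of the 10 genes at 337 ± 57.0 RPKM (SD, n = 3) and stood between ranks 129 and 175 of all 14851 genes. Cdkn1a at 71.8 ± 19.4, Cdkn2b at 60.8 ± 10.2, Ccnd1 at 52.2 ± 16.9 and Cdkn1b at 43.8 ± 5.67 RPKM followed (SD, n = 3), and each overlapped the next in this order. Mdm2 at 30.1 ± 2.53 and Ccnd2 at 17.6 ± 6.84 RPKM (SD, n = 3) were separate from their neighbours. Cdkn2c at 7.07 ± 2.96, Trp53 at 5.25 ± 0.475 and Rb1 at 3.85 ± 0.971 RPKM (SD, n = 3) were the lowest, and each overlapped the next. The lowest count behind any of these values in the 12 libraries was 100 reads, for Rb1. With Atg5 KO or Atg7 KO, Ccnd1 took the second place behind Cdkn2a and did not overlap it. In Fip200 KO cells Ccnd1 was also second by mean, but the libraries of Cdkn2a and Ccnd1 overlapped.

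**Figure D1:**
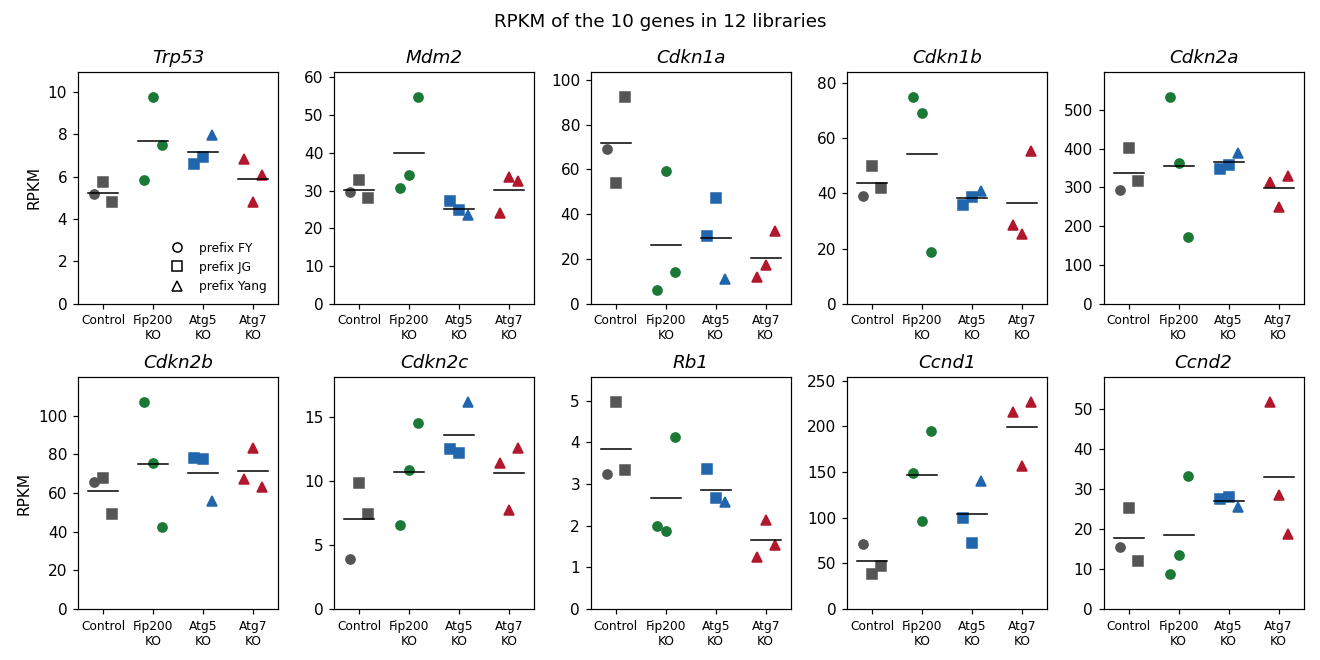
RPKM of the 10 genes in each of the 12 libraries (vertical axis, linear, from 0, with its own scale for each gene), by group on the horizontal axis. Each symbol is a library, its shape gives the library-name prefix and the bar is the mean of 3 libraries. All 9 KO libraries lie above the 3 control libraries for Ccnd1, and 8 of 9 lie below them for Cdkn1a.

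The test was limma's moderated one, run for each KO against control on log2(RPKM + 0.5), a scale that understates the fold change of a low gene. Called means here that the adjusted p over all tested genes was 0.1 or less and that the log2 fold change reached 1 in size. In Atg7 KO cells, 3 of the 10 genes were called, Ccnd1 higher and Cdkn1a and Rb1 lower, where 10.1% of all 11784 tested genes were called. With Atg5 KO 1 of the 10 was called, Cdkn1a, which was lower, where 11.2% of all 11833 genes were called. With Fip200 KO 0 of the 10 were called, where 1.98% of all 11803 genes were called by limma. There, 2 of the 10, Cdkn1a and Ccnd1, had an unadjusted p under 0.05, beside 16.1% of all genes, and limma-voom on the reads behind the RPKM values also called 0. By the adjusted p alone, 0 of the 10 passed with Fip200 KO, 5 with Atg5 KO and 3 with Atg7 KO, beside 2.05%, 41.5% and 25.1% of all tested genes. The 3 KO libraries did not overlap the 3 control libraries for 2 of the 10 genes with Fip200 KO, 6 with Atg5 KO and 3 with Atg7 KO, beside 24.1%, 50.4% and 39.6% of all tested genes. The shares of the 10 genes called in Atg5 KO and Fip200 KO cells were near those of all genes. All 10 genes passed the filter on low values in every comparison, and the same control libraries stood in the 3 comparisons. In an exact two-sided permutation test of 3 against 3 libraries, no p can be below 0.1, so none of the 30 single tests could pass a threshold of 0.05.

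**Figure D2:**
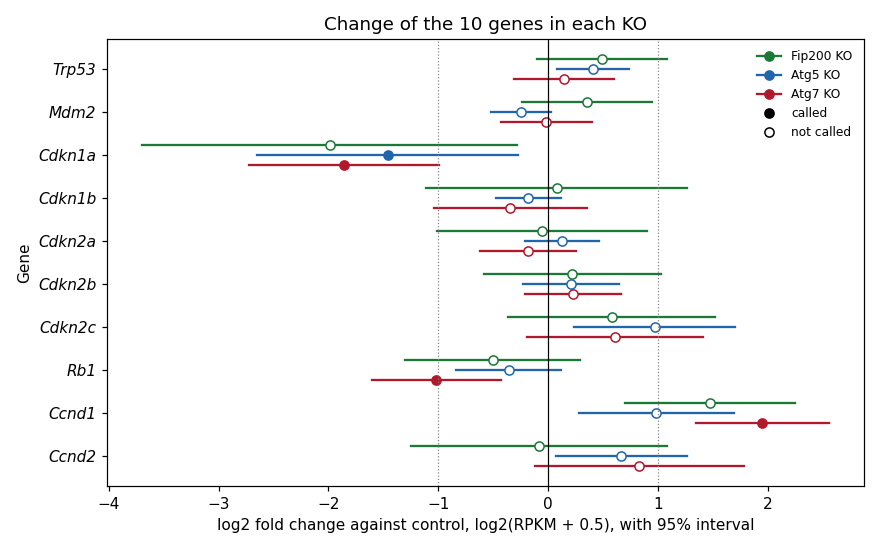
Log2 fold change against control of each gene in each KO (horizontal axis, from log2 of RPKM plus 0.5), with its 95% interval from limma. Filled circles mark the 4 calls, Cdkn1a for Atg5 and Atg7 KO and Rb1 and Ccnd1 for Atg7 KO alone, and the dotted lines mark a log2 fold change of 1 in size.

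Trp53 (gene ID 22059), which encodes the transcription factor p53, was not called in any KO. Its level was 5.20, 5.75 and 4.80 RPKM in control replicates 1 to 3, and 5.84, 9.78 and 7.51 in Fip200 KO cells. It was 6.58, 6.94 and 7.97 RPKM in Atg5 KO cells and 6.85, 4.79 and 6.08 in Atg7 KO cells. The Fip200 KO and Atg5 KO libraries all lay above the control libraries, while Atg7 KO replicate 2 lay just below them. For Trp53 the log2 fold change was 0.49 with Fip200 KO (SE 0.252, adjusted p = 0.386), 0.41 with Atg5 KO (SE 0.138, adjusted p = 0.0626) and 0.15 with Atg7 KO (SE 0.193, adjusted p = 0.623). The first was also 0.49 (adjusted p = 0.376) without Fip200 KO replicate 3. The Atg5 KO difference passed the adjusted p but was below the fold threshold.

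Mdm2 (gene ID 17246), the ubiquitin ligase of p53 and itself a p53 target, was at 29.5, 32.9 and 27.9 RPKM in control and 30.7, 34.1 and 54.9 in Fip200 KO cells. It was at 27.3, 24.9 and 23.5 RPKM in Atg5 KO cells and at 24.0, 33.7 and 32.5 in Atg7 KO cells. The 3 Atg5 KO libraries lay below control, and Fip200 KO replicate 3 was the highest of the 12. No difference passed the test, with a log2 fold change of 0.36 for Fip200 KO (SE 0.253, adjusted p = 0.506), −0.25 for Atg5 KO (SE 0.115, adjusted p = 0.141) and −0.014 for Atg7 KO (SE 0.176, adjusted p = 0.966). The first of these was 0.11 (adjusted p = 0.775) without Fip200 KO replicate 3. The ratio of Mdm2 to Trp53 RPKM was 5.67 to 5.82 in the control libraries and 2.95 to 4.15 in the Atg5 KO libraries, which did not overlap. It was 3.49 to 7.31 with Fip200 KO and 3.51 to 7.04 with Atg7 KO, on both sides of control.

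Among 12 other tested regulators of p53, 0 were called in Fip200 KO cells. By the adjusted p alone, 0 passed with Fip200 KO, 9 with Atg5 KO (6 higher and 3 lower) and 4 with Atg7 KO (all higher), where 2.05%, 41.5% and 25.1% of all tested genes did. With Atg5 KO 1 of 12 was called, where 11.2% of all genes were, namely Hipk2, a kinase that phosphorylates p53, which was lower (log2 fold change −1.23, adjusted p = 0.0686). Its levels were 2.47, 8.60 and 4.78 RPKM in control and 1.29, 1.45 and 2.67 in Atg5 KO cells, and the libraries overlapped. The call was lost without control replicate 2 (adjusted p = 0.142), control replicate 3 (0.154), Atg5 KO replicate 1 (0.182) or Atg5 KO replicate 2 (0.166). With Atg7 KO 1 of 12 was called, where 10.1% of all genes were, namely Atr, a kinase of the DNA damage response, which was higher (log2 fold change 1.31, adjusted p = 0.0127). Atr was at 2.55, 2.04 and 1.99 RPKM in control and at 7.19, 5.42 and 6.00 in Atg7 KO cells, all well above control. It also lay above control, though not called, at 4.12 to 5.73 RPKM with Fip200 KO and 4.13 to 4.62 with Atg5 KO. In the fit of all 12 libraries Atr was also called higher in Fip200 KO cells, and with the prefix as a term its Atg7 KO call was lost (adjusted p = 0.324). With Atg7 KO, 1 to 3 of the 12 were called when a library was left out, with Atm and Chek1 called higher without Atg7 KO replicate 2 and Hipk2 lower without control replicate 1. The median log2 fold change of these 12 genes was 0.18, 0.27 and 0.18 in Fip200, Atg5 and Atg7 KO cells, beside 0.02, 0.06 and −0.01 over all tested genes.

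Cdkn1a (gene ID 12575), which encodes p21, was lower with Atg5 KO and with Atg7 KO. It was at 69.2, 53.9 and 92.4 RPKM in control and at 6.02, 59.1 and 14.0 in Fip200 KO cells. It was at 30.4, 47.3 and 10.996 RPKM in Atg5 KO cells and at 11.97, 17.5 and 32.4 in Atg7 KO cells. All Atg5 KO and Atg7 KO libraries lay below control, whereas Fip200 KO replicate 2 lay within the control range and the other Fip200 KO libraries far below it. Cdkn1a had a log2 fold change of −1.46 with Atg5 KO (SE 0.501, adjusted p = 0.0667) and −1.86 with Atg7 KO (SE 0.368, adjusted p = 0.0243). With Fip200 KO it was −1.99 (SE 0.730, adjusted p = 0.253), and −1.84 (adjusted p = 0.285) without replicate 3, and was not called. It ranged from −2.86 to −1.27 when each library was left out in turn (limma, adjusted p between 0.110 and 0.675). In RNA from bulk cells, fewer cells with the transcript and less transcript per cell cannot be told apart. Of the 10 genes, Cdkn1a varied most over the 12 libraries, with an SD of 1.22 on the log2 scale. The genes whose pattern over the 12 libraries was closest to that of Cdkn1a, out of 10091 searched, were Kdelr3, Cpe and Ahrr, with a root-mean-square difference of 0.60, 0.60 and 0.62 on the log2 scale after centring.

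The Cdkn1a calls rested on single libraries. For Atg5 KO the call was lost without control replicate 1 (adjusted p = 0.114), control replicate 3 (0.178) or Atg5 KO replicate 1 (0.120), and without Atg5 KO replicate 3 the log2 fold change of Cdkn1a was −0.88. For Atg7 KO it was lost without control replicate 3 (adjusted p = 0.101). In 1 fit of all 12 libraries both calls were lost (adjusted p = 0.207 with Atg5 KO and 0.116 with Atg7 KO). Within the JG libraries, the 2 Atg5 KO libraries were lower than the 2 control libraries by a log2 difference of −0.89 without overlap, and within the FY libraries the 3 Fip200 KO libraries were all below control replicate 1, by −1.97 on average. The 4 Yang libraries held no control and had 10.996 to 32.4 RPKM of Cdkn1a, so that Atg7 KO has no control of its own prefix. A fit with the prefix as a term links these libraries to control only through Atg5 KO replicate 3. In such a fit of all 12 libraries, the log2 fold change of Cdkn1a was −0.89 with Atg5 KO (adjusted p = 0.588) and −0.13 with Atg7 KO (adjusted p = 0.986).

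Cdkn1a has 2 annotated starts in the promoter table, and the 250 bases before each are shown because this gene was called lower with Atg5 KO and with Atg7 KO. The sequences are from RefSeq on GRCm38.p6, forward strand, 5′ to 3′. Capitals in the first mark a pair of CATG 6 bases apart, the paired core of a p53 response element, a motif picked after the window had been read, and capitals in the second mark GGGCGG, the GC box bound by Sp1.
Cdkn1a, upstream start, chr17:29090729-29090978: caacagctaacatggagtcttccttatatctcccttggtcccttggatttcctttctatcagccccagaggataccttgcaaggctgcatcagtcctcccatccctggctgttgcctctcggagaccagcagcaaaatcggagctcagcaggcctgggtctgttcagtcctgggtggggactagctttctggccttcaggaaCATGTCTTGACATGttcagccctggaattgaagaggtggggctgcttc
Cdkn1a, downstream start, chr17:29093519-29093768: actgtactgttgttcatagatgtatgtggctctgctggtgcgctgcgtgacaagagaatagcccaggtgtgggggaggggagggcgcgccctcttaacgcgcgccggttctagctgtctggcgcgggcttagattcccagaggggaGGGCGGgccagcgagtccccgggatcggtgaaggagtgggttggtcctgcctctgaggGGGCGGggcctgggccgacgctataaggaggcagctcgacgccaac
On either strand, the CATG pair is in 161 of 32851 windows of this length (0.49%) and the GC box in 32.7%. The CATG pair was not found in the windows of the other members.

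The 29 tested p53 target genes, Cdkn1a and Mdm2 among them, held 3 called lower with Fip200 KO, 3 with Atg5 KO and 6 with Atg7 KO, and 0 called higher in each. Called lower were 1.64%, 6.94% and 6.81% of all tested genes. By the adjusted p alone, 3 of the 29 passed with Fip200 KO (all lower), 9 with Atg5 KO (7 lower and 2 higher) and 11 with Atg7 KO (10 lower and 1 higher). Of all tested genes, 2.05%, 41.5% and 25.1% did. The median log2 fold change of the 29 was −0.06, −0.25 and −0.38, beside 0.02, 0.06 and −0.01 over all genes. Fas, a death receptor, was called in all 3 KO. It was at 1.43, 1.64 and 2.67 RPKM in control and at 0.183 to 0.539 in the 9 KO libraries, and no KO library reached the control range. With Atg7 KO, Fas stayed at 0.183 to 0.418 RPKM, under the filter of 0.5, and was tested only through the control libraries. Such a gene can hardly be called other than lower, so this call, 1 of the 6, is given as a description only. Gdf15, a secreted stress cytokine, was also called in all 3, with 4.03, 8.37 and 2.97 RPKM in control and 0.108 to 1.99 in the KO libraries. Its log2 fold change was −2.22 with Fip200 KO (adjusted p = 0.0800), −1.89 with Atg5 KO (adjusted p = 0.0490) and −2.34 with Atg7 KO (adjusted p = 0.0144). Plk2, a kinase, was lower in Fip200 KO cells (log2 fold change −1.35, adjusted p = 0.0823), with 96.3 to 134 RPKM against 227 to 385 in control. In Atg7 KO cells it was at 144 to 217 RPKM, also below control, and in Atg5 KO cells at 136 to 278, which overlapped control. Plk2 was called in neither.

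In Atg7 KO cells Trp53inp1, which encodes a nuclear protein induced by stress, fell from 2.48, 4.34 and 2.83 RPKM to 0.597, 0.353 and 1.34 (log2 fold change −1.60, adjusted p = 0.0281). Sesn1, which encodes sestrin 1, an inhibitor of mTORC1 signaling, fell from 4.96, 8.11 and 5.26 RPKM to 1.92, 2.43 and 3.74 (log2 fold change −1.06, adjusted p = 0.0516). The Atg7 KO libraries did not overlap control for either gene. Trp53inp1 was also below control in all Atg5 KO libraries, at 1.38 to 1.77 RPKM, and at 0.680 to 2.78 with Fip200 KO, but was not called there. Psrc1, outside the rule for named genes and named after its values were seen, was the other gene called with Atg7 KO (log2 fold change −1.05, adjusted p = 0.0368). When a library was left out, 1 to 7 of the 29 were called with Atg7 KO, with 1 without control replicate 3 and 3 without control replicate 2. Fas did not reach the filter on low values there when any control library was left out, and was then not tested. The Sesn1 call was lost without control replicate 2 (adjusted p = 0.138), control replicate 3 (0.135) or Atg7 KO replicate 1 (0.153), and the Trp53inp1 call without control replicate 3 (0.101). Psrc1 lost its call without control replicate 2 (adjusted p = 0.113), control replicate 3 (0.136) or Atg7 KO replicate 1 (0.111), and without Atg7 KO replicate 2 its log2 fold change was −0.90. With a pseudocount of 1, Psrc1 (−0.78) and Sesn1 (−0.95) fell short of the fold threshold. With Fip200 KO the calls of Fas, Gdf15 and Plk2 were each lost when any 1 of control replicates 1 to 3 or Fip200 KO replicates 1 and 2 was left out. The adjusted p was then 0.133 to 0.501 for Fas, 0.104 to 0.308 for Gdf15 and 0.120 to 0.459 for Plk2, and with no filter on low values 0 of the 29 were called in these cells. With limma-voom the calls of Fas (adjusted p = 0.112) and Gdf15 (0.1004) were lost, and with a pseudocount of 0.1 or 1 that of Fas (adjusted p = 0.103 and 0.105). They held without Fip200 KO replicate 3, with a log2 fold change of −1.39 for Fas, −2.01 for Gdf15 and −1.33 for Plk2. The Gdf15 call in Atg5 KO cells was lost without control replicate 2 (adjusted p = 0.124). In the fit of all 12 libraries, 3, 2 and 4 of the 29 were called in Fip200, Atg5 and Atg7 KO cells, and with the prefix as a term 0, 1 (Fas) and 0 were. Gdf15 was then at a log2 fold change of −0.62 in Atg7 KO (adjusted p = 0.819) and −1.38 in Atg5 KO cells (adjusted p = 0.141).

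Cdkn1b (gene ID 12576), which encodes p27, was at 39.1, 50.1 and 42.2 RPKM in control and at 75.1, 69.1 and 18.7 in Fip200 KO cells. It was at 35.7, 38.7 and 41.1 RPKM in Atg5 KO cells and at 28.6, 25.2 and 55.3 in Atg7 KO cells. All groups overlapped control, and in Fip200 KO cells replicate 3 lay far below the other 2 libraries, which lay above control. Log2 fold changes of Cdkn1b were 0.080 with Fip200 KO (SE 0.507), −0.18 with Atg5 KO (SE 0.126) and −0.34 with Atg7 KO (SE 0.296), and none passed (adjusted p between 0.315 and 0.951). The first was 0.72 (adjusted p = 0.101) without Fip200 KO replicate 3, and without replicate 1 or 2 it was −0.27 or −0.21.

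Of 3 other CDK inhibitors, Cdkn1c, which encodes p57, the other Cip/Kip protein, was lower in all 3 KO. It was at 92.3, 37.5 and 47.7 RPKM in control, near the level of Cdkn1a and Cdkn1b, and at 0.0491 to 4.29 in the 9 KO libraries. Cdkn1c had a log2 fold change of −4.82 with Fip200 KO (adjusted p = 0.0363), −5.37 with Atg5 KO (adjusted p = 0.00383) and −5.04 with Atg7 KO (adjusted p = 0.00771), larger in size than that of any of the 10 genes. Within the FY and JG libraries the difference was −5.56 and −4.35. With Fip200 KO this call was lost without control replicate 2 (adjusted p = 0.167) or control replicate 3 (0.263), and without Fip200 KO replicate 3 the value was −4.73 (adjusted p = 0.0340). With the prefix as a term, the Atg7 KO value was −2.74 (adjusted p = 0.510) and no longer called, while the Fip200 KO and Atg5 KO calls held. Cdkn2d, which encodes the Ink4 protein p19Ink4d, was at 9.43 to 21.7 RPKM in control and 8.69 to 17.7 in the KO libraries and was not called. Cdkn3, which encodes a phosphatase of Cdk2, was at 6.28 to 11.2 RPKM in control and 7.18 to 18.3 in the KO libraries and was not called either. This made 1 of 3 called lower in each KO. Of all tested genes, 1.64%, 6.94% and 6.81% were called lower with Fip200, Atg5 and Atg7 KO.

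Cdkn2a (gene ID 12578) was transcribed in every library. It was at 293, 402 and 317 RPKM in control and at 534, 362 and 172 in Fip200 KO cells. It was at 348, 358 and 389.9 RPKM in Atg5 KO cells and at 314, 249 and 329 in Atg7 KO cells. Fip200 KO replicates 1 and 3 were the highest and the lowest of the 12, and every KO group overlapped control. For Cdkn2a the log2 fold change was −0.06 with Fip200 KO (95% interval −1.01 to 0.90), 0.13 with Atg5 KO (−0.21 to 0.46) and −0.18 with Atg7 KO (−0.62 to 0.26), with adjusted p between 0.524 and 0.959. The first of these was 0.40 (adjusted p = 0.426) without Fip200 KO replicate 3. Cdkn2a made up 62.3% to 75.8% of the summed RPKM of the 5 CDK inhibitors in every library, with a median of 67.0%. The lowest count of Cdkn2a was 4289 reads.

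The Cdkn2a locus makes 2 proteins from different first exons, p16Ink4a, which blocks Cdk4 and Cdk6, and p19Arf, which blocks Mdm2. The gene length that the values imply is 1136 bases, near the 1172 bases of all annotated exons and above the 895 bases of the longer transcript, so that the row covers both transcripts and their shares cannot be told apart. The 250 bases before each start, on the reverse strand of GRCm38.p6 and from RefSeq, are shown because they are the separate promoters of these proteins. Capitals mark GGGCGG and TTTCCCGC, the latter a site for E2F.
Cdkn2a, p19Arf start, chr4:89294620-89294869: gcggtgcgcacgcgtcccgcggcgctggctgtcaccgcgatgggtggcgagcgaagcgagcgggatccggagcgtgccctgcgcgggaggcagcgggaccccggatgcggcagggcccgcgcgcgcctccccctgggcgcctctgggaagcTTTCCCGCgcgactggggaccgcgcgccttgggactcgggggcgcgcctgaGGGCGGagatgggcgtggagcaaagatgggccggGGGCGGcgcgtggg
Cdkn2a, p16Ink4a start, chr4:89282193-89282442: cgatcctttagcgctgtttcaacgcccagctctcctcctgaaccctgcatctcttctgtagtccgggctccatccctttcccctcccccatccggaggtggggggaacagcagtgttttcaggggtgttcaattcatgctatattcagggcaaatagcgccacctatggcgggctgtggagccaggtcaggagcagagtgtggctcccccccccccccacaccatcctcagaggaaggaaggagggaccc
The first held 2 GC boxes and 1 E2F site, counting TTTCGCGC, TTTGGCGC and TTTCCCGC on either strand, which are in 1.53% of windows. The second held none of the motifs searched, which also included TGACGTCA and TATAAA. In all, 7 of the 10 genes had 10 windows, and Rb1, Ccnd1 and Ccnd2 had none.

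Cdkn2b (gene ID 12579), which encodes p15Ink4b next to Cdkn2a on chromosome 4, was at 65.6, 67.6 and 49.0 RPKM in control and at 107, 75.5 and 42.6 in Fip200 KO cells. It was at 77.9, 77.5 and 56.1 RPKM in Atg5 KO cells and at 67.1, 83.2 and 63.2 in Atg7 KO cells. As for Cdkn2a, Fip200 KO replicates 1 and 3 were the highest and the lowest of the 12, and all groups overlapped. Cdkn2b had a log2 fold change of 0.22 with Fip200 KO (SE 0.343), 0.21 with Atg5 KO (SE 0.184) and 0.23 with Atg7 KO (SE 0.186), with adjusted p between 0.409 and 0.775. The first was 0.58 (adjusted p = 0.241) without Fip200 KO replicate 3. The ratio of Cdkn2a to Cdkn2b RPKM was 4.47 to 6.47 in control and 2.99 to 6.95 in all 12 libraries.

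Cdkn2c (gene ID 12580), which encodes p18Ink4c, was at 3.94, 9.83 and 7.42 RPKM in control and at 6.60, 10.9 and 14.6 in Fip200 KO cells. It was at 12.5, 12.2 and 16.2 RPKM in Atg5 KO cells and at 11.4, 7.77 and 12.6 in Atg7 KO cells. The Atg5 KO libraries all lay above control, and the other groups overlapped it. In Atg5 KO the log2 fold change of Cdkn2c was 0.97 (SE 0.309, adjusted p = 0.0543), which passed the adjusted p and fell just short of the fold threshold. With limma-voom on the reads it was 1.01 (adjusted p = 0.0565), with a pseudocount of 0.1 it was 1.02 (adjusted p = 0.0570), and without control replicate 2 it was 1.24, and Cdkn2c was then called. It was 0.58 with Fip200 KO (adjusted p = 0.495), or 0.33 (adjusted p = 0.690) without replicate 3, and 0.61 with Atg7 KO (adjusted p = 0.248).

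Several chromosomal neighbours of Cdkn2a and Cdkn2b also had RNA. Mtap, an enzyme of methionine salvage that is often deleted together with this locus in tumors, was at 26.3, 45.0 and 28.5 RPKM in control and at 36.1 to 88.4 in the KO libraries. Of 5 tested genes beside the locus, 0 were called in any KO by limma, while Mtap and Klhl9 passed the adjusted p alone with Atg5 KO, Mtap did so with Atg7 KO, and 0 did so with Fip200 KO, where 41.5%, 25.1% and 2.05% of all tested genes did. Klhl9 was at 9.63 to 18.8 RPKM and Focad at 4.40 to 11.1 RPKM over the 12 libraries. Mllt3 was at 1.80 to 8.88 and Hacd4 at 1.24 to 7.99 RPKM. Elavl2, a neuronal gene, had at most 0.0140 RPKM, and Ifne, an interferon gene, at most 0.697. Mllt3, a subunit of a complex that promotes transcription elongation, was called higher in Fip200 KO cells without replicate 3 or with all 12 libraries in 1 fit. Mtap and Mllt3 were called higher in Atg5 KO cells without control replicate 2 and in Atg7 KO cells without replicate 2, and Hacd4 in Atg7 KO cells without replicate 3.

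Of 14 tested regulators of the Cdkn2a locus, mostly Polycomb proteins, Id1 was called lower with Atg5 KO (log2 fold change −2.04, adjusted p = 0.00729) and with Atg7 KO (−2.06, adjusted p = 0.0169). This made 1 of 14 in each, where 11.2% and 10.1% of all genes were called. By the adjusted p alone, 9, 7 and 0 of the 14 passed with Atg5, Atg7 and Fip200 KO, beside 41.5%, 25.1% and 2.05% of all genes. Id1 encodes a helix-loop-helix inhibitor that represses p16Ink4a in other cells. It was at 326, 160.0 and 345 RPKM in control and at 18.9 to 107 in the 9 KO libraries, all below control, and was called with Fip200 KO in the fit of all 12 libraries. With the prefix as a term neither call of Id1 held (adjusted p = 0.205 with Atg5 KO and 0.716 with Atg7 KO). With Atg7 KO 2 of the 14 were called without control replicate 1 or Atg7 KO replicate 3 (Bmi1 higher beside Id1) and without control replicate 3 (Ring1 lower beside Id1), and with Fip200 KO Id1 was called without replicate 1. The median log2 fold change of the 14 genes was 0.14, 0.11 and 0.01 in Fip200, Atg5 and Atg7 KO cells, beside 0.02, 0.06 and −0.01 over all genes.

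Rb1 (gene ID 19645), the pocket protein that the D-type cyclins inactivate, was lower in Atg7 KO cells. It was at 3.24, 4.97 and 3.34 RPKM in control and at 1.996, 1.88 and 4.13 in Fip200 KO cells. It was at 3.36, 2.66 and 2.57 RPKM in Atg5 KO cells and at 1.25, 2.15 and 1.54 in Atg7 KO cells. The Atg7 KO libraries all lay below control, and the other groups overlapped it. Rb1 had a log2 fold change of −1.02 with Atg7 KO (SE 0.251, adjusted p = 0.0407), −0.36 with Atg5 KO (SE 0.201, adjusted p = 0.217) and −0.50 with Fip200 KO (SE 0.339, adjusted p = 0.485). The Atg7 KO value lay close to the fold threshold. Rb1 was not called there with a pseudocount of 1 (−0.87), without control replicate 2 (adjusted p = 0.113) or 3 (0.116), or without Atg7 KO replicate 1 (0.130) or 3 (0.102), nor with the prefix as a term (0.652). The Fip200 KO value was −0.81 (adjusted p = 0.166) without replicate 3. Exons of Lpar6 and Rcbtb2 overlap Rb1 on the other strand, and the sources used here do not say whether reads were counted by strand.

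Of 12 tested pocket proteins and E2F factors, Rbl2, which encodes the pocket protein p130 of resting cells, was called lower with Atg5 KO (log2 fold change −1.43, adjusted p = 0.00614) and with Atg7 KO (−1.18, adjusted p = 0.0363). It was at 5.97, 10.0 and 7.77 RPKM in control and at 2.12 to 4.75 in the 9 KO libraries, all below control. The Rbl2 call in Atg7 KO cells was lost without control replicate 2 (adjusted p = 0.110), control replicate 3 (0.128) or Atg7 KO replicate 1 (0.102), and with the prefix as a term (0.475). With Fip200 KO 0 of the 12 were called by limma, and Rbl2 was called lower without Fip200 KO replicate 3. The share of all genes called was 11.2%, 10.1% and 1.98% with Atg5, Atg7 and Fip200 KO. By the adjusted p alone, 4 of the 12 passed with Atg5 KO (Rbl1, Tfdp2 and E2f7 higher, Rbl2 lower), 2 with Atg7 KO (E2f7 higher, Rbl2 lower) and 0 with Fip200 KO, beside 41.5%, 25.1% and 2.05% of all genes. The median log2 fold change of the 12 was −0.06, 0.17 and 0.15 in Fip200, Atg5 and Atg7 KO cells, beside 0.02, 0.06 and −0.01 over all genes.

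Ccnd1 (gene ID 12443), which encodes cyclin D1, was higher in Atg7 KO cells. It was at 71.1, 38.8 and 46.6 RPKM in control and at 149, 96.9 and 195 in Fip200 KO cells. It was at 99.7, 72.5 and 140.4 RPKM in Atg5 KO cells and at 215, 156 and 227 in Atg7 KO cells. All 9 KO libraries lay above the 3 control libraries, and Atg5 KO replicate 2 was the closest, just above control replicate 1. Its log2 fold change was 1.95 with Atg7 KO (SE 0.259, adjusted p = 0.0104), 0.99 with Atg5 KO (SE 0.298, adjusted p = 0.0474) and 1.48 with Fip200 KO (SE 0.330, adjusted p = 0.110). For Atg5 KO, Ccnd1 passed the adjusted p but not the fold threshold, and without control replicate 1 (1.23) or Atg5 KO replicate 2 (1.22) it was called. For Fip200 KO it missed the adjusted p and was called without Fip200 KO replicate 3 (1.25, adjusted p = 0.0998) or with all 12 libraries in 1 fit (adjusted p = 0.0329).

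Within the FY libraries the Fip200 KO libraries were higher in Ccnd1 than control replicate 1 by a log2 difference of 0.99, and within the JG libraries the Atg5 KO libraries were higher than control by 0.99, both without overlap. The 4 Yang libraries had 140.4 to 227 RPKM. In the fit of all 12 libraries with the prefix as a term, the log2 fold change of Ccnd1 in Atg7 KO cells was 1.48 (adjusted p = 0.411). LTO1 overlaps an exon of Ccnd1 on the other strand, as AC167363.2 does for Cdkn1a and 9330179D12Rik and Gm43126 do for Ccnd2. The genes with the closest pattern to Ccnd1 were Btbd19, Cad and Pabpc4, with a root-mean-square difference of 0.36, 0.38 and 0.39 on the log2 scale over the 12 libraries, where Ccnd1 itself had an SD of 0.84.

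**Figure D3:**
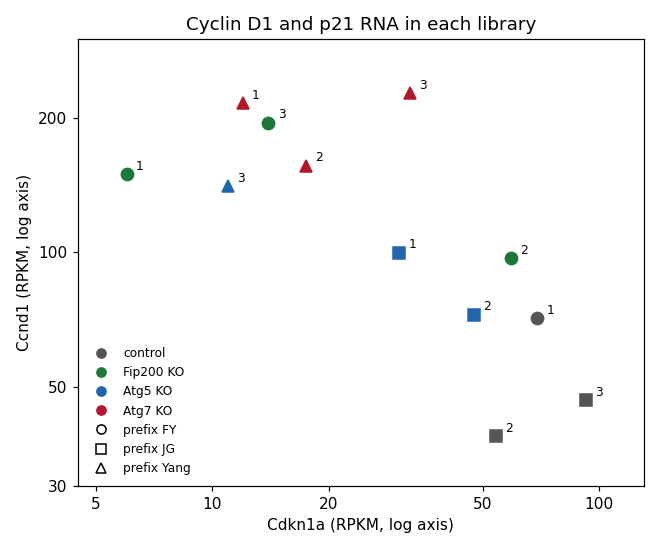
Ccnd1 against Cdkn1a RPKM in each library, both axes logarithmic, with colour for the group, shape for the library-name prefix and the replicate number beside each symbol. The control libraries lie at the lower right, with a ratio of Ccnd1 to Cdkn1a of 0.504 to 1.03, and the 9 KO libraries have ratios of 1.53 to 24.8.

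Ccnd2 (gene ID 12444), which encodes cyclin D2, was at 15.5, 25.3 and 12.1 RPKM in control and at 8.76, 13.5 and 33.2 in Fip200 KO cells. It was at 27.5, 28.0 and 25.5 RPKM in Atg5 KO cells and at 51.7, 28.5 and 18.7 in Atg7 KO cells. The Atg5 KO libraries lay just above control and close together, whereas the other KO groups spread over and beyond the control range. For Ccnd2 the log2 fold change was 0.67 with Atg5 KO (SE 0.251, adjusted p = 0.0855), 0.83 with Atg7 KO (SE 0.405, adjusted p = 0.194) and −0.083 with Fip200 KO (SE 0.496, adjusted p = 0.948), and none was called. The last value was −0.60 (adjusted p = 0.398) without Fip200 KO replicate 3. Ccnd1 exceeded Ccnd2 in all 12 libraries, by 1.53 to 4.59 times in control and by 2.58 to 17.0 times in the KO libraries. The closest patterns to Ccnd2 were those of Npm3, Eif4g3 and Zfp296, with a root-mean-square difference of 0.29, 0.31 and 0.33 on the log2 scale.

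Of 14 other cyclins, kinases and regulators of G1 and S phase, Ccne2, which encodes cyclin E2, was called higher with Atg5 KO (log2 fold change 1.23, adjusted p = 0.00844) and with Atg7 KO (1.20, adjusted p = 0.0232). Ccne2 was at 1.34, 1.66 and 2.37 RPKM in control, at 4.94, 5.17 and 4.29 with Atg5 KO and at 5.43, 4.27 and 4.33 with Atg7 KO. In Fip200 KO cells it spread from 0.944 to 6.35 RPKM. Ccne2 was the 1 gene of 14 called in each, where 4.31% and 3.29% of all genes were called higher, and Myc was also called higher with Atg7 KO without control replicate 2. By the adjusted p alone, 8 of the 14 passed with Atg5 KO (7 higher and 1 lower), 2 with Atg7 KO and 0 with Fip200 KO, beside 41.5%, 25.1% and 2.05% of all genes. With the prefix as a term neither Ccne2 call held (adjusted p = 0.284 with Atg5 KO and 0.689 with Atg7 KO). Cdk4, the main partner of the D-type cyclins, was at 205 to 279 RPKM in control and 272 to 411 in the KO libraries, and Cdk6 was at 6.73 to 19.5 RPKM over all 12. Ccnd3, the remaining D-type cyclin, was at 41.7, 46.0 and 45.6 RPKM in control and at 32.3 to 53.4 in the KO libraries. Cdk4, Cdk6 and Ccnd3 fall outside the rule for named genes and are given as partners of the D-type cyclins and Ink4 proteins, and none of them was called.

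The 18 E2F target genes of DNA replication, which lie downstream of Rb, were all tested. In Atg5 KO cells 5 were called higher, Tyms, Uhrf1, Cdc6, Tk1 and Rrm2, where 4.31% of all genes were called higher, and in Atg7 KO cells 3 were called higher, Rrm2, Tyms and Cdc6, where 3.29% were. None was called lower. By the adjusted p alone, 9 of the 18 passed with Atg5 KO (8 higher and 1 lower), 7 with Atg7 KO (6 higher and 1 lower) and 0 with Fip200 KO. Of all tested genes, 41.5%, 25.1% and 2.05% did. The median log2 fold change of the 18 was 0.47 with Atg5 KO and 0.45 with Atg7 KO, beside 0.06 and −0.01 over all genes. With Fip200 KO it was 0.17, beside 0.02. Tyms, which encodes thymidylate synthase, was at 6.46, 5.95 and 9.57 RPKM in control, at 22.2, 22.3 and 25.3 with Atg5 KO and at 14.7, 16.8 and 17.9 with Atg7 KO. Rrm2, a subunit of ribonucleotide reductase, was at 9.77, 21.4 and 18.2 RPKM in control, at 32.3, 32.1 and 35.5 with Atg5 KO and at 44.1, 40.0 and 28.1 with Atg7 KO. Neither gene overlapped control in these KO cells.

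With Fip200 KO 0 of the 18 E2F targets were called by limma, where 1.98% of all genes were, and 6 had a negative log2 fold change. When replicate 3 was left out, 1 of the 18, Mcm5 of the replicative helicase, was called lower. Tyms at 10.8 to 20.3, Tk1 at 41.2 to 71.4 and Uhrf1 at 20.2 to 34.6 RPKM lay above control in every library. Control had 5.95 to 9.57, 21.9 to 33.2 and 12.4 to 16.8 RPKM of these genes. For other genes the Fip200 KO libraries were far apart. Rrm2 was at 10.1, 10.2 and 91.2 RPKM and Cdc6, which loads the replicative helicase, at 1.65, 1.35 and 9.85. The median of the 18 genes relative to the control mean was −0.19, −0.53 and 0.96 on the log2 scale in Fip200 KO replicates 1 to 3. Replicate 3, with the highest such median of the 12, was also the library with the lowest Cdkn2a, Cdkn2b and Cdkn1b. In the Atg5 KO libraries the same median was 0.33 to 0.50 and in the Atg7 KO libraries 0.29 to 0.53, against −0.35, 0.20 and 0.18 in control. Without control replicate 1, Cdc6, Rrm2 and Tk1 were no longer called in Atg5 KO cells (0.93, 0.74 and 0.91) and Cdc6 and Rrm2 no longer in Atg7 KO cells (0.89 and 0.88), since the log2 fold change fell under 1. In Atg7 KO cells Cdc6 and Rrm2 were also lost without control replicate 3 (adjusted p = 0.127 and 0.120) or Atg7 KO replicate 1 (0.132 and 0.145). With Atg7 KO replicate 2 left out, 5 were called higher in Atg7 KO cells, Tk1 and Uhrf1 in addition, and without control replicate 2 there were 4, Tk1 in addition. With a pseudocount of 1, Cdc6 (0.97) was not called in Atg7 KO cells. In the fit of all 12 libraries Cdc6 and Rrm2 were called in neither Atg5 KO (adjusted p = 0.171 and 0.312) nor Atg7 KO cells (0.181 and 0.248). With the prefix as a term 1 of the 18, Tyms, was called in Atg5 KO cells, and 0 were called in Atg7 KO cells by limma.

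**Figure D4:**
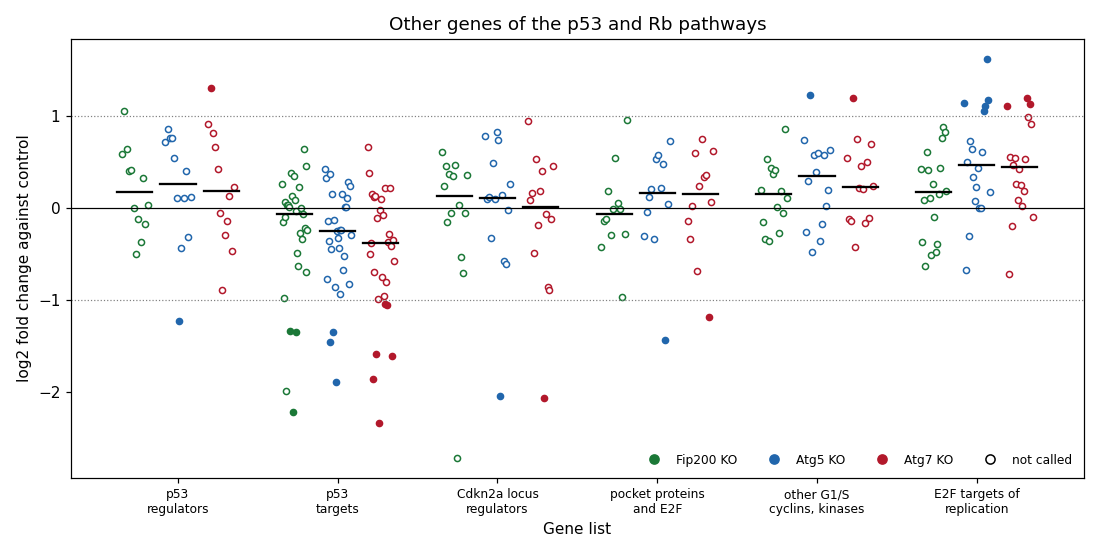
Log2 fold change against control (vertical axis, from log2 of RPKM plus 0.5) of the tested genes of 6 lists around the 10 genes, with 1 circle for each gene and KO and a bar at the median. Filled circles are called. Called p53 targets lie below −1 in all 3 KO, and called E2F targets lie above 1 for Atg5 KO and for Atg7 KO.

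The KO cells were also compared with each other in 1 limma fit of all 12 libraries. Between any pair of KO groups 0 of 12233 tested genes (0.0%) were called, also by limma-voom, although 927, 916 and 562 genes (7.58%, 7.49% and 4.59%) had an unadjusted p under 0.05 for Atg5 against Fip200, Atg7 against Fip200 and Atg7 against Atg5. Of the 10 genes, 1, 0 and 2 had such a p, and the smallest adjusted p of a member was 0.578, 0.697 and 0.935. Ccnd1 was higher in Atg7 KO than in Atg5 KO cells by a log2 difference of 0.97 (95% interval 0.26 to 1.67, adjusted p = 0.935), without overlap. Rb1 was lower there by a log2 difference of −0.66 (95% interval −1.29 to −0.03, adjusted p = 1.00), also without overlap. For Cdkn1a the interval of the difference was −1.07 to 2.13 for Atg5 against Fip200, −1.47 to 1.73 for Atg7 against Fip200 and −1.997 to 1.20 for Atg7 against Atg5, so that a 2-fold difference in either direction lay within each interval. With Fip200 KO replicate 3 left out, Ccnd2 was called higher (log2 difference 1.43, adjusted p = 0.0896) and Cdkn1b lower (−1.06, adjusted p = 0.0769) in Atg7 KO than in Fip200 KO cells.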

How the data were processed

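Of each KO against control, the authors deposited 1 table with the same 3 control libraries and 14851 genes. Reads were aligned with TopHat2 and compared with edgeR per the paper's methods and the submitters' processing notes. The build, annotation and versions are not given in the sources used here. The authors deposited RPKM values per library, reads per kilobase of gene scaled to the library total, a unit read from the values since no header names it. The group means are a signal, which the authors deposited as reads divided by size factors. The authors also deposited the fold change, its log2 and the p-value with its adjusted value of their own comparison, and these were not used.

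Whole reads were recovered for 14851 genes from the ratios between RPKM values, for the depth and for limma-voom. Genes that reached an RPKM of 0.5 in 3 or more of the compared libraries were tested with limma 3.58.1 (R 4.3.3) on log2 of RPKM plus 0.5, with a trend and Benjamini-Hochberg adjustment, on the 6 libraries of a comparison, or on all 12 for differences between KO cells. The script was tested on simulated data. Alternatives were the pseudocount, no filter, median-of-ratios scaling, 1 fit of 12 libraries, the prefix or a replicate block as a term, limma-voom and leaving out each library.

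The members, lists and alternatives were chosen with earlier results of these data known. Named were all members, the targeted genes, called genes of each list (at most 6 by size) and all genes of short lists. All genes with values on the list beside the Cdkn2a and Cdkn2b locus were also named, and Ifne, a neighbour outside that list. The last were the 3 genes of closest pattern, with a mean RPKM of at least 2, to the 3 most variable members. Figures were drawn with matplotlib 3.10.9.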

Additional observations from a re-analysis of the deposited data

Results flagged for a closer look

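Mdm2 lay below the control mean in Atg5 KO and above it in Fip200 KO cells, neither difference from control passed the test, and the libraries of these KO groups did not overlap. The log2 difference of Atg5 KO against Fip200 KO cells was −0.61 (SE 0.217, unadjusted p = 0.0170), which did not pass the adjustment over all genes (adjusted p = 0.578 from limma). Without Fip200 KO replicate 3 it was −0.35 (adjusted p = 0.285).

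Cdkn2a likewise lay on opposite sides of the control mean in Atg7 KO and Atg5 KO cells, with a log2 difference of −0.30 (SE 0.329) for Atg7 KO against Atg5 KO cells. This did not pass either (unadjusted p = 0.374, adjusted p = 1.00 from limma).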

How the results depend on the processing

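The members called in Atg7 KO cells, 3, numbered 0 once the library-name prefix was a term, and 1 to 3 when a library was left out (1 without control replicate 3). In Atg5 KO cells the 1 call became 2 with a pseudocount of 0.1 and with limma-voom, 0 with the prefix as a term and 0 in the fit of 12 libraries, and 0 to 2 when a library was left out. In Fip200 KO cells 0 became 1 in the fit of 12 libraries and 0 to 1 when a library was left out, and in Atg7 KO against Fip200 KO cells 0 to 2. With the replicate block, 0, 0 and 3 members were called in Fip200, Atg5 and Atg7 KO cells, and 93, 1322 and 1071 of all genes, beside 234, 1331 and 1191 without it. The calls of Fas, Gdf15 and Plk2 in Fip200 KO cells were also lost with the block (adjusted p = 0.174, 0.106 and 0.121), as were those of Cdkn1a in Atg5 KO (0.106) and Cdc6 in Atg7 KO cells (0.107). The labels name nothing else that libraries of the same number share. The deviations of same-numbered KO and control libraries had correlations between −0.22 and 0.08, and 1 of 9 KO libraries correlated best with the control of its own number. These correlations cannot show whether same-numbered libraries shared a culture or run.

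With the prefix as a term the log2 fold change reversed, but was not called, for Cdkn2a (0.13) and Ccnd2 (0.033) in Fip200 KO, Cdkn2a (−0.017) in Atg5 KO, and Trp53 (−0.080), Mdm2 (0.12) and Cdkn2c (−0.11) in Atg7 KO cells. So did the log2 difference of Atg5 KO against Fip200 KO for Cdkn2a (−0.15), Cdkn2b (0.33), Cdkn2c (−0.76), Rb1 (−0.084) and Ccnd1 (0.0061), of Atg7 KO against Fip200 KO for Cdkn2c (−1.38), and of Atg7 KO against Atg5 KO for Cdkn1a (0.76). The cause was not tested.

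Leaving out 1 library also reversed uncalled values. In Fip200 KO cells these ranged from −0.42 to 0.40 for Cdkn2a, −0.60 to 0.33 for Ccnd2, −0.27 to 0.72 for Cdkn1b and −0.083 to 0.58 for Cdkn2b, and in Atg7 KO cells from −0.10 to 0.14 for Mdm2. For Atg5 KO against Fip200 KO they ranged from −0.19 to 1.40 for Cdkn1a, −0.90 to 0.092 for Cdkn1b, −0.36 to 0.29 for Cdkn2b, −0.25 to 0.10 for Trp53, −0.024 to 0.46 for Rb1 and −0.27 to 0.55 for Cdkn2a. For Atg7 KO against Fip200 KO they ranged from −0.59 to 1.00 for Cdkn1a, −0.57 to 0.24 for Cdkn2a, −0.26 to 0.28 for Cdkn2c and −0.35 to 0.31 for Cdkn2b. For Atg7 KO against Atg5 KO they ranged from −0.98 to 0.048 for Cdkn1a, −0.14 to 0.10 for Cdkn2b, −0.22 to 0.50 for Ccnd2 and −0.51 to 0.051 for Cdkn1b. Of 140 values of the 10 members under the alternatives, 128, 127 and 125 kept their direction and side of the thresholds in Fip200, Atg5 and Atg7 KO cells. Every member had at least 100 reads in every library.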
